A study of Mus musculus with 6 samples.

Results

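The Hippo kinase cascade was described here by 9 genes, Stk3, Stk4, Sav1, Lats1, Lats2, Mob1a, Mob1b, Nf2 and Wwc2, which were taken by symbol from a table of 13226 genes. All 9 were in the table, and all 9 passed the filter on low counts that left 13113 genes for testing. RNA was measured in whole tibialis anterior (TA) muscles of male C57BL/6 mice aged 8 weeks. The muscles were excised 7 days after intramuscular injection of an adeno-associated viral vector, AAV6:Yap-shRNA in 3 muscles and a control vector in 3 muscles. The control is named as an empty vector in the sample titles and as AAV6:LacZ-shRNA in the vector field, and these samples are called control. Muscles of opposite legs received the different vectors, so each control muscle came from a mouse that also carried Yap-shRNA. The Yap shRNA sequence was carried in a plasmid with a CMV promoter, which is not restricted to muscle fibres, and with eGFP, and whole muscle also holds vessels, nerves, connective tissue and immune cells. In such bulk RNA, fewer cells of a type and less RNA per cell cannot be told apart. The comparison asks whether the genes that restrain Yap were altered once Yap itself had been knocked down.

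In the Hippo pathway, the kinases Mst2 and Mst1 (encoded by Stk3 and Stk4) act with the scaffold protein Sav1 to phosphorylate the kinases Lats1 and Lats2 and their activators Mob1a and Mob1b. The Lats kinases in turn phosphorylate Yap and Taz, which are then held in the cytoplasm or degraded rather than entering the nucleus to bind Tead transcription factors. Merlin, encoded by Nf2, and the Kibra family protein Wwc2 promote activation of the Lats kinases at the cell cortex. LATS2 and NF2 are known in other cell types as genes transcribed under Yap-Tead control, which closes a feedback loop.

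Tead factors bind the core GGAATG, read on the other strand as CATTCC. These 6 letters were sought in RefSeq promoter windows (build GRCm38.p6) of 300 bases, from 250 bases before a start to 50 bases from it. Of the 9 genes, 8 had a window and 10 windows were held in all. Stk3 had none. The core was present at 4 of these 8 genes, Sav1, Lats2, Mob1a and Wwc2, against 14.5% of the 9390 tested genes with a window. It was also present once in the Yap1 window. The matches are shown with 10 bases on either side, 5′ to 3′ along the gene's own strand and with the core in capitals, because Tead binding is the route by which Yap is known to reach its target genes:
Wwc2, 203 bases upstream: gcgagctgtgCATTCCtccgccctac
Wwc2, 94 bases upstream: gttaagctcaGGAATGtggcggcgag
Lats2, 4 bases downstream: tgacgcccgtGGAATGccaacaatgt
Sav1, 106 bases upstream: gctttcccagCATTCCcagcggcgcg
Mob1a, 209 bases upstream: gccagaatagCATTCCtttaggagaa
Yap1, 141 bases upstream: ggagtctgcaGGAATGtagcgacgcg

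The distances run from the RefSeq start to the first base of the core. The Wwc2 window held another core 79 bases upstream, and windows with 3 or more cores made up 0.124% of the 12065 windows of tested genes. The Wwc2 cores lie on chromosome 8, minus strand, at chr8:47990742-47990747, chr8:47990633-47990638 and chr8:47990618-47990623, all within an exon of Wwc2 in the GENCODE annotation. The Lats2 core at chr14:57746114-57746119 (minus strand), in 1 of the 2 windows of that gene, also lies in an annotated exon. Those of Sav1 (chr12:69987103-69987108, minus strand), Mob1a (chr6:83325830-83325835, plus strand) and Yap1 (chr9:8004732-8004737, minus strand) lie in no exon of their gene. The partner motif of AP-1 factors, TGANTCA, was in none of the 10 windows and in 5.08% of the windows of tested genes. The motifs can share the letters TG. A match is a description of the letters and not a site shown to be bound.

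Yap1, the targeted gene, stood at 71.2, 65.3 and 68.4 CPM (counts scaled to library size by edgeR's TMM method) in control muscles 1 to 3, and at 32.0, 23.9 and 39.5 CPM in Yap-shRNA muscles 1 to 3. All 3 Yap-shRNA muscles lay below all 3 controls, at 46.5% of the control mean. Libraries held 11987167 to 12710393 counts, of which the 9 cascade genes together took 3123 to 3672. A gene was called where edgeR's quasi-likelihood test, adjusted over the 13113 genes by Benjamini-Hochberg, gave p under 0.05. By this rule 0 genes were called (0% of those tested), Yap1 included (log2 fold change -1.10, standard error 0.16, adjusted p = 0.323), while 211 genes (1.61%) had an unadjusted p under 0.05. That number rested on single libraries, being 936 (7.11%) without control 1 and 127 (0.965%) without control 3. If no gene differed, about 656 of the 13113 genes would be expected to have such a p, more than the 211 found. DESeq2 and edgeR's likelihood ratio test each called 5 genes, among them Yap1 (adjusted p = 5.85e-07 and 1.72e-06) and none of the 9 cascade genes.

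With Yap1 at 46.5% of its control level, none of the 9 cascade genes passed the test. Since the same test did not call Yap1 either, the intervals below, rather than the absence of calls, give the sizes of difference that the data allow. Of the 9, 7 had a log2 fold change above 0 (49% of all tested genes did) and 2 had one below 0. An unadjusted p under 0.05 was given to 0 of the 9, beside 0.892% of all tested genes with such a p that were higher and 0.717% that were lower in Yap-shRNA muscles. Without control 1, where 7.11% of all tested genes had such a p, it was given to 2 of the 9 (Mob1a and Wwc2), and without Yap-shRNA 1 to 1 of the 9 (Wwc2). The groups overlapped for all 9, while 5.27% of all tested genes had groups that did not overlap (2.54% higher and 2.73% lower). The log2 fold changes lay between -0.085 (Mob1b) and 0.36 (Wwc2), with a median of 0.10 against -0.0025 over all genes tested. The median was 0.040 without control 3 and 0.16 without control 1. The 95% intervals of the 9 differences reached at lowest a fold of 0.768 (Mob1b) and at highest a fold of 1.67 (Wwc2). A fall of the size of Yap1, to a fold of 0.465, lay outside the interval of every cascade gene.

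**Figure D1:**
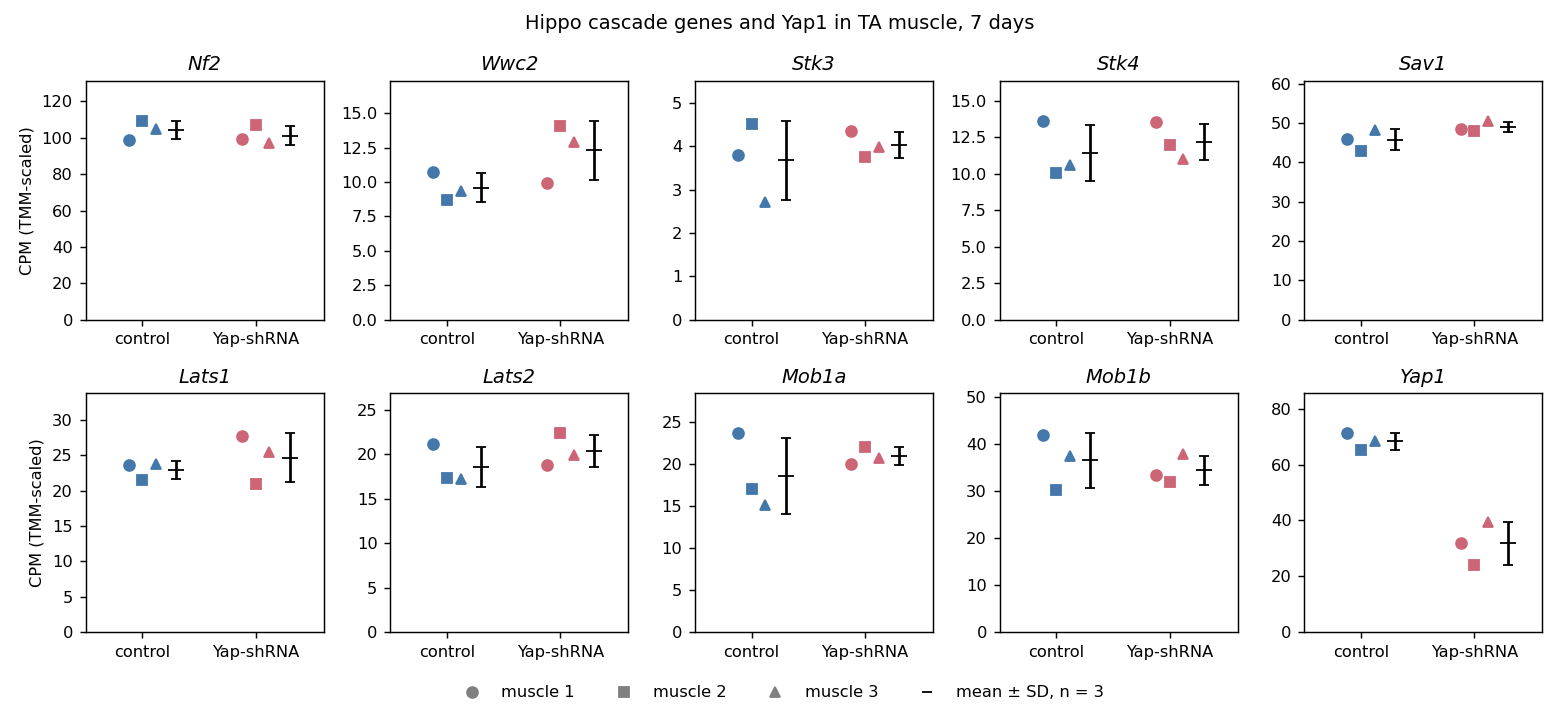
Level of the 9 cascade genes and of Yap1 in CPM (y axis, from 0) in each control (blue) and Yap-shRNA (red) muscle, with the mean ± SD of 3 muscles in black and the marker giving the replicate number. The groups overlap for each of the 9 cascade genes, whereas the 3 Yap-shRNA muscles lie at 23.9 to 39.5 CPM for Yap1 and the 3 controls at 65.3 to 71.2 CPM.

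**Figure D2:**
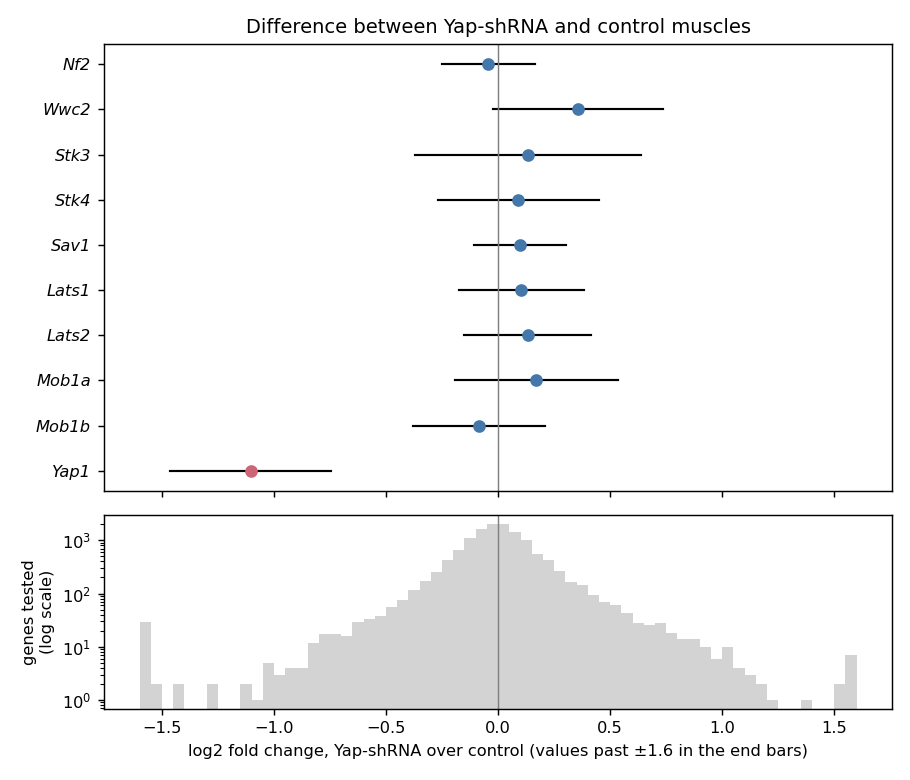
Log2 fold change of Yap-shRNA over control muscles for each gene (points) with its 95% interval by edgeR (lines), above a histogram of the 13113 genes tested on a log count axis. The intervals of the 9 cascade genes all include 0, and that of Yap1 runs from -1.46 to -0.75.

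At the upstream end, Nf2 (ENSMUSG00000009073, chr11:4765845-4849536 of GRCm38, minus strand) had the highest level of the 9 genes per exon length and one of the smallest spreads. It stood at 99.0, 108.9 and 104.8 CPM in control muscles and at 99.4, 107.0 and 97.0 CPM in Yap-shRNA muscles. The values of the groups were interleaved, with a log2 fold change of -0.043 (standard error 0.092, 95% interval -0.25 to 0.16), from -0.086 without Yap-shRNA 2 to -0.011 without control 2. With 1274 counts per library on average, the interval runs from 0.841 to 1.12 times the control level. The spread of Nf2 within groups (SD 0.07 on the log2 scale) was below that of all but 5.40% of the genes tested. This rank was not matched for level, and counting error is small at such counts (a coefficient of variation of 2.80%).

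Wwc2 (ENSMUSG00000031563, chr8:47823959-47990924, minus strand) had the largest difference of the 9. Its levels were 10.7, 8.70 and 9.36 CPM in control muscles and 9.90, 14.1 and 12.9 CPM in Yap-shRNA muscles. Yap-shRNA muscles 2 and 3 lay above every control, while Yap-shRNA 1 lay between controls 3 and 1. The means were 9.60 ± 1.04 and 12.3 ± 2.15 CPM (SD, n = 3). This was a log2 fold change of 0.36 (standard error 0.17, 95% interval -0.023 to 0.74), with an unadjusted p = 0.0627 and, after Benjamini-Hochberg adjustment, an adjusted p = 1.00 in edgeR's quasi-likelihood test. By an exact permutation test over the 6 muscles (two-sided) p was 0.20, where 0.10 is the smallest that 3 against 3 allow. Of all tested genes, 92.3% had an absolute log2 fold change no larger than that of Wwc2. The direction held with each muscle left out, from 0.25 without Yap-shRNA 2 to 0.49 without Yap-shRNA 1. In edgeR's quasi-likelihood test without control 1, the unadjusted p was 0.0319 and the adjusted p 0.697, and without Yap-shRNA 1 they were 0.0190 and 1.00. Wwc2 was highest in Yap-shRNA 2, the muscle with the least Yap1 (23.9 CPM). Among the Yap-shRNA muscles it was lowest in Yap-shRNA 1, where Yap1 was intermediate (32.0 CPM). An order of 3 values is easily shared or missed, and a link between the levels of the 2 genes was not tested. The gene had 104 to 183 counts per library, at which counting error alone gives a coefficient of variation of 8.56%. Its annotated exons overlap those of Cldn22 on the other strand, and since no strand setting is given in the sources used here, its reads are uncertain there.

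The upstream kinases had lower levels per exon length than the Lats kinases. Stk3 (ENSMUSG00000022329, chr15:34875496-35178921, minus strand) was covered by 49, 54 and 33 counts among the controls and by 52, 49 and 50 among the muscles given Yap-shRNA. Scaled to CPM these were 3.81, 4.52 and 2.71 against 4.36, 3.76 and 3.99, so the Yap-shRNA values fell inside the control range. The log2 fold change was 0.13 (standard error 0.23, 95% interval -0.37 to 0.64), and it turned to -0.045 without control 3. Counting error alone amounts to a coefficient of variation of 14.5% at this level, beside 24.8% measured among the controls and 7.48% among the Yap-shRNA muscles.

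Stk4 (ENSMUSG00000018209, chr2:164070322-164155524, plus strand) stood at 13.6, 10.0 and 10.6 CPM in control muscles and at 13.5, 12.0 and 11.0 CPM with Yap-shRNA. Control 1 was the highest of the 6 and controls 2 and 3 the lowest. Stk4 thus differed by 0.090 on the log2 scale (standard error 0.16, 95% interval -0.27 to 0.45), from 0.0055 without control 2 to 0.24 without control 1.

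Sav1 (ENSMUSG00000021067, chr12:69965012-69987002, minus strand), the scaffold that brings these kinases together, stood at 46.1, 42.9 and 48.3 CPM in control muscles and at 48.6, 47.9 and 50.6 CPM in Yap-shRNA muscles. Only control 3 overlapped the Yap-shRNA range. The means were 45.7 ± 2.69 and 49.0 ± 1.37 CPM (SD, n = 3), which gave a log2 fold change of 0.10 (standard error 0.092, 95% interval -0.11 to 0.31), from 0.056 without control 2 to 0.14 without control 3. Sav1 was the most even of the 9 between muscles of a group, with a spread below that of all but 4.29% of genes. That rank was not matched for level either. Its exons overlap those of Atl1, which is on the other strand and was also counted, so its reads are uncertain there.

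For the Lats kinases, which act directly on Yap, Lats1 (ENSMUSG00000040021, chr10:7681214-7716460, plus strand) stood at 23.7, 21.5 and 23.7 CPM in control muscles and at 27.7, 20.9 and 25.4 CPM with Yap-shRNA. Yap-shRNA 1 and 3 were above the controls and Yap-shRNA 2 was below them. Lats1 differed by 0.10 on the log2 scale (standard error 0.12, 95% interval -0.18 to 0.38), from 0.013 without Yap-shRNA 1 to 0.21 without Yap-shRNA 2.

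Lats2 (ENSMUSG00000021959, chr14:57689662-57758388, minus strand) had levels of 21.2, 17.3 and 17.2 CPM in control muscles and 18.8, 22.4 and 19.9 CPM in Yap-shRNA muscles. Control 1 lay inside the Yap-shRNA range and the other controls lay below it. The log2 fold change was 0.13 (standard error 0.13, 95% interval -0.15 to 0.42), from 0.060 without Yap-shRNA 2 to 0.24 without control 1. As a fold, the interval runs from 0.900 to 1.33 times control. The exons of Lats2 overlap those of Gm49361, a same-strand gene model absent from the counts, so its counts are uncertain in that stretch.

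Taken as a sum, Lats1 and Lats2 reached 44.8, 38.8 and 41.0 CPM in control muscles and 46.5, 43.2 and 45.4 CPM in Yap-shRNA muscles, with control 1 inside the Yap-shRNA range (exact permutation test, two-sided, p = 0.20). Per count of Yap1, the counts of Lats1 and Lats2 were 0.630, 0.594 and 0.599 among controls and 1.45, 1.81 and 1.15 with Yap-shRNA. For all 9 genes summed, the corresponding ratio was 3.97 ± 0.032 among controls (SD, n = 3) and 8.62, 11.8 and 7.08 among Yap-shRNA muscles. Both ratios were apart in all 3 against 3 muscles. Their denominator is Yap1, the targeted gene, so this separation was set by the knockdown and is no test of the cascade. The 9 genes together stood at 271.3 ± 11.3 CPM in control and 279.1 ± 3.25 CPM in Yap-shRNA muscles (SD, n = 3), with overlapping groups (exact permutation p = 0.40).

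The Mob1 genes, whose products bind and activate the Lats kinases, had small differences of opposite sign. Mob1a (ENSMUSG00000043131, chr6:83326016-83343776, plus strand) stood at 23.7, 17.1 and 15.1 CPM in control muscles and at 20.0, 22.1 and 20.8 CPM with Yap-shRNA. The control muscles covered a wider range than the Yap-shRNA muscles and enclosed them. On the log2 scale Mob1a differed by 0.17 (standard error 0.16, 95% interval -0.19 to 0.54), from 0.040 without control 3 to 0.38 without control 1. Without control 1 its unadjusted p was 0.0109 and its adjusted p 0.667 in edgeR's quasi-likelihood test.

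Mob1b (ENSMUSG00000006262, chr5:88720855-88764220, plus strand) stood at 41.8, 30.3 and 37.3 CPM in control muscles and at 33.4, 32.0 and 37.9 CPM in Yap-shRNA muscles, again within the control range. Mob1b differed by -0.085 on the log2 scale (standard error 0.13, 95% interval -0.38 to 0.21), and by 0.025 without control 1. The 2 Mob1 genes encode near-identical proteins, and reads that fit both may have been dropped or split.

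Levels of different genes can be compared per length only, as CPM per kilobase of annotated exon. On this scale Nf2 was first with 15.0 ± 0.71 (SD over the 6 muscles), above Sav1 with 8.69 ± 0.51 in control and 9.31 ± 0.26 in Yap-shRNA muscles, and their ranges did not overlap. Mob1a (4.13 ± 0.67), Lats1 (3.26 ± 0.34), Lats2 (2.79 ± 0.30), Mob1b (2.36 ± 0.29) and Stk4 (2.01 ± 0.26) followed, and neighbours among these 5 overlapped in range, with the first of each pair higher in 5 of 6 muscles. Wwc2 (0.79 ± 0.15) and Stk3 (0.63 ± 0.10) were lowest, and their ranges overlapped too. Among all tested genes with a length, Nf2 stood at percentile 84.3 and Stk3 at percentile 15.5. The order depended on the length used. The same whole-gene counts were also divided by the length of the principal transcript, for Mob1b 2705 bases against 15033 for all exons. Mob1b then moved from the sixth place to the third with 13.1 CPM per kilobase. Lats2 (3.75) passed Lats1 (3.30), and Stk3 (1.32) passed Wwc2 (1.26). Reads on other exons stay in these counts, so levels on this scale may be too high.

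**Figure D3:**
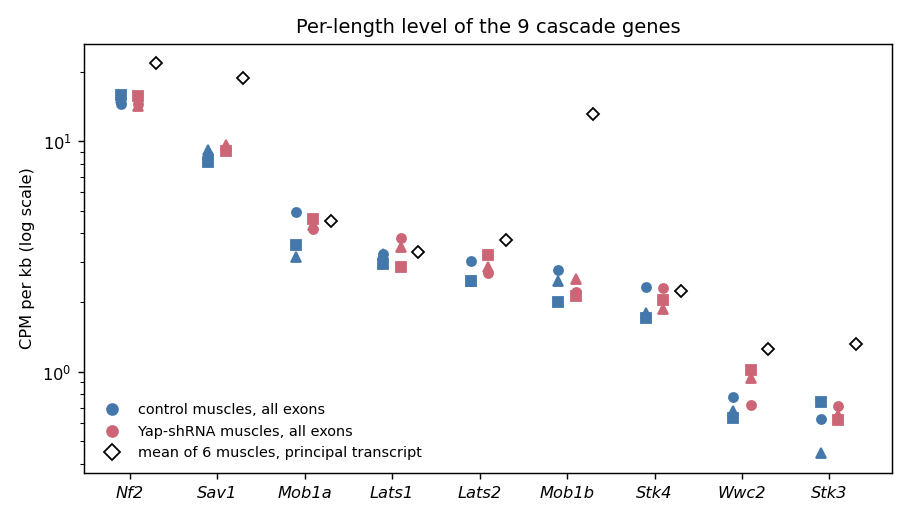
CPM per kilobase (log axis) of the 9 cascade genes in each control (blue) and Yap-shRNA (red) muscle, over all annotated exons. Open diamonds give the mean of the same counts divided by the length of the principal transcript. Nf2 and Sav1 lie above the other genes on the all-exon scale, Wwc2 and Stk3 lie lowest, and Mob1b is the gene whose place changes most with the length used.

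Within each muscle the ratio of paralogs does not depend on library scaling, and 3 pairs were compared. Stk3 had 0.282, 0.452 and 0.259 counts per count of Stk4 among controls and 0.325, 0.316 and 0.365 in Yap-shRNA muscles. The Yap-shRNA values lay inside the control range, and the log2 ratio differed by 0.061 (exact permutation test, two-sided, p = 0.90, adjusted over the 3 pairs 0.90). Lats1 had 1.12, 1.24 and 1.38 counts per count of Lats2 in control muscles and 1.47, 0.935 and 1.28 with Yap-shRNA, a difference of -0.040 on the log2 scale (exact p = 0.90, adjusted 0.90). Yap-shRNA 2 was the 1 muscle with more counts on Lats2 than on Lats1, and without it the difference was 0.14.

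Mob1a had 0.568, 0.564 and 0.405 counts per count of Mob1b among controls and 0.601, 0.693 and 0.550 in Yap-shRNA muscles. Yap-shRNA 1 and 2 lay above all controls and Yap-shRNA 3 below controls 1 and 2. The log2 ratio was higher by 0.27 with Yap-shRNA (exact p = 0.30, adjusted 0.90), and 0.11 without control 3. Per kilobase of exon, Stk3 made up 23.7% ± 5.65 of the Stk3 and Stk4 level in control and 24.2% ± 1.40 in Yap-shRNA muscles (SD, n = 3), Lats1 made up 54.2% ± 2.58 and 53.5% ± 5.78 of the Lats level, and Mob1a 61.3% ± 4.64 and 65.7% ± 2.61 of the Mob1 level. These shares depended on the length used. Per kilobase of principal transcript they were 36.5% and 37.4% for Stk3, 47.2% and 46.5% for Lats1, and 23.8% and 27.3% for Mob1a, so that Lats2 and Mob1b then had the larger share.

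**Figure D4:**
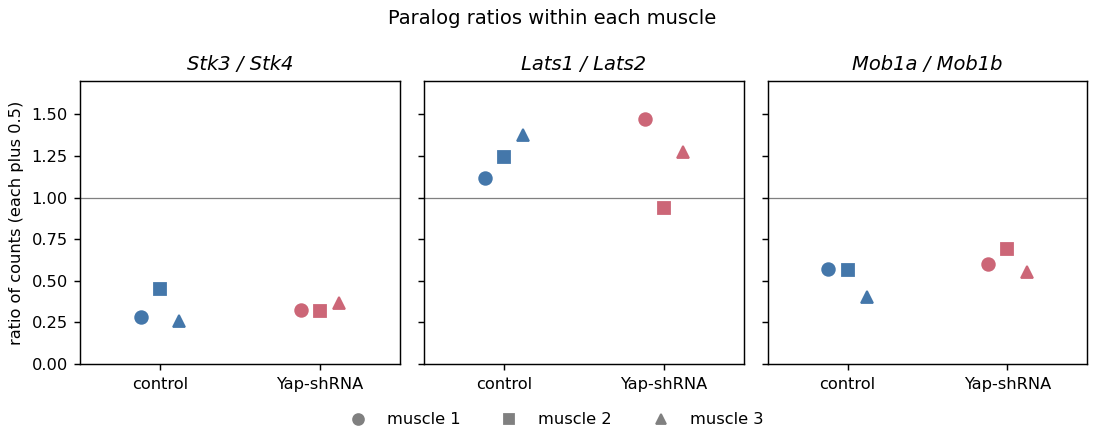
Ratio of counts (each plus 0.5) of Stk3 to Stk4, Lats1 to Lats2 and Mob1a to Mob1b within each control (blue) and Yap-shRNA (red) muscle, with the grey line at equal counts. The groups overlap for the 3 pairs, and Lats1 to Lats2 in Yap-shRNA 2 (0.935) is the only Lats value below 1.

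Around the 9 genes, 83 other pathway genes were listed in 5 roles, and 78 of them were tested. Of these, 0 passed the adjusted test, and 38 had a log2 fold change above 0 and 40 below 0. Groups did not overlap for 10 of the 78 (4 higher, 6 lower), a larger share than the 5.27% of all tested genes. The 10 include Yap1, the targeted gene, and the list was chosen with earlier results of these data known. An unadjusted p under 0.05 was given to 3 of the 78 (Yap1, Amot and Strn4, or 3.85%), beside 1.61% of all tested genes. Without control 1 the shares were 7.69% and 7.11%, and without control 2 they were 6.41% and 2.16%. Among the 18 tested upstream scaffold and apical genes the median log2 fold change was 0.014. Amot, which encodes the Yap-binding protein angiomotin, was lowest in this role. It stood at 102.2, 89.9 and 92.0 CPM in control muscles and at 75.5, 65.2 and 76.2 CPM in Yap-shRNA muscles, so that all Yap-shRNA muscles lay below all controls. The log2 fold change of Amot was -0.39 (standard error 0.10, unadjusted p = 0.00392, adjusted p = 1.00 by edgeR's quasi-likelihood test). Frmd6, which encodes a FERM domain protein, was highest in this role, with 11.6, 10.1 and 9.69 CPM against 12.8, 12.3 and 12.4 CPM and a log2 fold change of 0.26 (standard error 0.13).

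The 16 other kinases ranged from -0.16 (Stk38l, a kinase related to the Lats kinases) to 0.14 (Mark4), with a median of -0.023. The 21 tested genes listed as inhibitors of the cascade had a median of -0.027. That list joins genes of the STRIPAK phosphatase complex with LIM and Rassf genes. Its name may not hold for each of them, the Rassf genes included, and whether each restrains the cascade was not tested. Slmap, which brings the STRIPAK phosphatase complex to Mst kinases, stood at 51.6 ± 1.54 CPM in control (SD, n = 3) and at 37.2, 48.8 and 44.4 CPM in Yap-shRNA muscles, all below the controls, with a log2 fold change of -0.25 (standard error 0.11). Rassf5, which encodes a Rassf protein that binds Mst kinases, was highest in that role at 0.41 (standard error 0.39), but with 0.586 to 1.71 CPM its groups overlapped. Strn4, a striatin subunit of STRIPAK named here after its values were seen, stood at 22.6, 21.2 and 23.3 CPM against 26.9, 27.6 and 28.9 CPM, with a log2 fold change of 0.31 (standard error 0.10, unadjusted p = 0.00949, adjusted p = 1.00 by the same test). The 14 genes of cytoplasmic retention and degradation of Yap ranged from -0.52 (Sfn, at most 1.63 CPM in any muscle, a 14-3-3 gene) to 0.12 (Ywhaq, another gene of the 14-3-3 family).

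Among the 9 effectors, Tead2 was highest at 0.23 (standard error 0.23) and Yap1 lowest at -1.10. Wwtr1, which encodes Taz and is named here after its values were seen, stood at 38.7, 31.5 and 32.5 CPM in control and 36.6, 33.6 and 40.7 CPM in Yap-shRNA muscles (log2 fold change 0.11, standard error 0.12). Taz is the other target of the Lats kinases, and its groups overlapped.

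**Figure D5:**
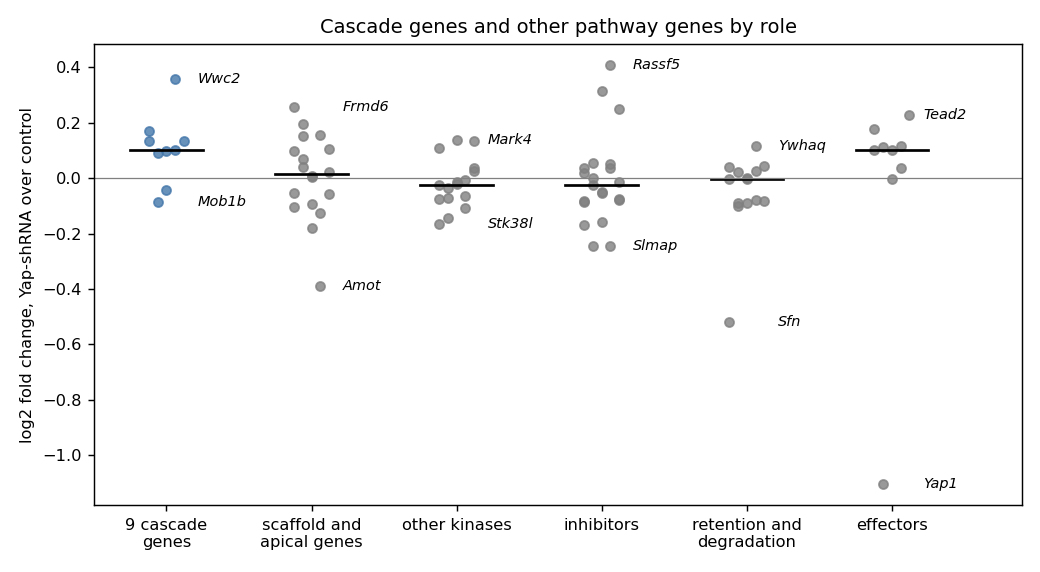
Log2 fold change of Yap-shRNA over control muscles for the 9 cascade genes (blue) and the 78 other pathway genes tested (grey), by role, with black bars at the medians and the highest and lowest gene of each list named. Yap1 at -1.10 stands apart from the rest, which lie between -0.52 and 0.41.

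The gene whose pattern over the 6 muscles was nearest to that of each cascade gene was found by the root-mean-square difference of log2 CPM around each gene's mean. It was Rnf19b for Nf2 (0.015), 2610507I01Rik for Wwc2 (0.045), Lyplal1 for Stk3 (0.042), Gpm6b for Stk4 (0.013), Casd1 for Sav1 (0.0051), Snx12 for Lats1 (0.029), Plagl2 for Lats2 (0.036), Samd9l for Mob1a (0.020) and Wdfy3 for Mob1b (0.016). No cascade gene was the nearest gene of another, which was likely beforehand with only 9 of them among the 13113 genes tested. The closest by rank was Lats2 for Wwc2, at place 98 of all genes, followed by Lats2 for Mob1a at place 115. With 6 values per gene, a near pattern can be found by chance among so many genes. These names and places are a description, and shared regulation was not tested.

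Markers of the tissue were summed for each muscle. The 10 skeletal muscle fibre markers made up 15.5 to 18.4% of scaled counts, and 1 of 10 had a log2 fold change above 0. The 10 macrophage markers summed to 237.0, 148.2 and 101.3 CPM in control muscles 1 to 3 and to 172.8, 205.3 and 222.5 CPM in Yap-shRNA muscles 1 to 3, and 10 of 10 had a log2 fold change above 0 without passing the test. In the control muscles Mob1a and Lats2 had the same order as these sums, highest in control 1 and lowest in control 3. The margin was small for Lats2, and neither gene had the order of the sums in the Yap-shRNA muscles. No other cascade gene had that order in the control muscles. An order of 3 values is easily shared, and Mob1a and Lats2 were named here after their values were seen. The 6 fibroblast markers summed to 1255 to 2558 CPM in control and 1474 to 2971 CPM in Yap-shRNA muscles, and the 5 of 6 tendon markers tested (all but Mkx) to 126.2 to 639.0 CPM and 144.8 to 529.3 CPM, both highest in control 1 and Yap-shRNA 3. The 8 endothelial markers (465.9 to 508.4 against 464.3 to 510.0 CPM) and the 5 Schwann cell markers (60.3 to 113.4 against 76.7 to 102.9 CPM) overlapped between groups. A log2 fold change above 0 was found for 5 of 6 fibroblast, 1 of 5 tendon, 6 of 8 endothelial and 2 of 5 Schwann cell markers. The part of these cell types in the levels of the cascade genes was not tested.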

How the data were processed

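Polyadenylated RNA of 6 TA muscles was sequenced. The authors deposited 1 table of unnormalised gene counts with 1 column for each muscle. The submitters' processing notes name the build GRCm38 and bcl2fastq 2.20.0.422, and the aligner, counter, annotation and strand setting are not given in the sources used here. The lowest row total was 60 counts over the 6 libraries, so the table holds no genes below it.

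Genes were filtered by filterByExpr. Library sizes were adjusted by TMM, and group was the only term of the quasi-likelihood model of edgeR 4.0.16 in R 4.3.3. Standard errors are the log2 fold change divided by the root of its F statistic, and 95% intervals use the total degrees of freedom of that model. Exact permutation tests over muscles used log2 CPM or log2 ratios of counts plus 0.5. Lengths and positions are from GENCODE M21. The test was tried on simulated data. Alternatives were the likelihood ratio test, DESeq2 1.42.0, voom in limma 3.58.1, other scalings and filters, a replicate block and each muscle left out. The legacy quasi-likelihood fit was also counted among them, though it gave the same values as the main fit.

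The 9 genes, the lists and the tests were chosen with earlier results of these data known. Named genes were the 9 genes, Yap1, the highest and lowest gene of each role, any pathway gene called, and the gene nearest in pattern to each of the 9. Per the labels, control and treated muscles were paired in 3 animals, but no label ties a muscle to an animal. Within groups, pairs of libraries differed with a chi-square of 7.62 to 21.4 per degree of freedom, above the value of 1 that sampling noise gives, and p-values measure only the spread between these muscles.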

Additional observations from a re-analysis of the deposited data

How the results depend on the processing

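None of the 9 cascade genes was called under any of the 16 alternatives. Of 144 combinations of a cascade gene and an alternative, 142 kept direction and call and 2 changed sign. The legacy quasi-likelihood fit gave the values of the main fit for all 9 genes and Yap1. Its combinations are in these counts but are no separate check. Mob1b ranged from -0.20 to 0.025 and Stk3 from -0.045 to 0.30 (log2 fold change) with each muscle left out, the sign turning without control 1 for Mob1b and without control 3 for Stk3. The median of the 9 ranged from 0.040 to 0.16 with each muscle left out and from 0.10 to 0.11 otherwise. The number of genes called rose from 0 to 5 with DESeq2 and to 5 with the likelihood ratio test, and was 0 to 1 with each muscle left out (Rrad without control 1 and Mir155hg without Yap-shRNA 3). Of the other pathway genes, 1 (Yap1) was called by DESeq2 and 1 (Yap1) by the likelihood ratio test. Yap1 was at -1.10 (adjusted p = 5.85e-07) with DESeq2 and at -1.10 (adjusted p = 1.72e-06) with the likelihood ratio test of edgeR, and between -1.29 and -0.93 with each muscle left out. The causes were not tested. The Stk3 to Stk4 log2 ratio difference ranged from -0.094 to 0.31 with each muscle left out, being below 0 without control 1 (-0.031), control 3 (-0.094) and Yap-shRNA 3 (-0.00044). That of Lats1 to Lats2 ranged from -0.18 to 0.14 and was above 0 without control 3 (0.035) and Yap-shRNA 2 (0.14), and that of Mob1a to Mob1b ranged from 0.11 to 0.36. Deviations from the group means correlated at -0.10, 0.24 and -0.33 between muscles of number 1, 2 and 3. Between muscles of different number they correlated at -0.35 to 0.40, so these values do not settle whether a number marks an animal. The numbers were not taken as pairs because no label ties a muscle to an animal. With the replicate number as a block, Yap1 was at -1.13 (adjusted p = 0.070 by edgeR's quasi-likelihood test), the genes called stayed at 0 and no cascade gene was called. The depth limits Stk3 most, at 33 to 54 counts a library.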
